A study of Mus musculus with 6 samples.

Results

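The genes described here are the 10 core ligands and receptors of VEGF and angiopoietin signalling, Vegfa, Vegfb, Vegfc, Kdr, Flt1, Flt4, Tek, Tie1, Angpt1 and Angpt2. They were taken by gene name, with earlier results of these data known. All 10 of 10 were found by symbol among the 25888 genes of the expression table, and all 10 had a mean of at least 1 FPKM (fragments counted per kilobase of exon and scaled to sequencing depth), the minimum for testing. RNA sequencing had been done on the anterior dorsal pericardial wall, which holds second heart field progenitors, together with the cardiac outflow tract, from C57BL/6 mouse embryos at embryonic day 9.5. The Hand2 cKO group (3 libraries) carried floxed Hand2 alleles and Mef2c-AHF-Cre, a Cre transgene driven by an anterior heart field enhancer of Mef2c, and the control group (3 libraries) had no further genotype in its labels. Each library held tissue pooled from an unstated number of embryos, and any cell outside the Cre lineage contributed its RNA to both groups.

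Vascular endothelial growth factors are secreted proteins that bind receptor tyrosine kinases on endothelial cells. Kdr carries most of the growth and migration signal of VEGF-A, Flt1 binds VEGF-A and VEGF-B tightly and acts largely as a decoy in the embryo, and Flt4 binds VEGF-C. The angiopoietins act on the receptor Tek (also called Tie2): Angpt1 from mesenchyme and heart muscle activates it and stabilises vessels, while Angpt2 from endothelial cells often opposes Angpt1, and Tie1 is a related receptor that modulates Tek. In the embryonic heart this pathway is known for its part in forming the endocardium and its trabeculae, and Angpt1, Tek and Tie1 mutant mice have endocardial defects.

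Hand2 itself had 34.6, 22.2 and 17.9 FPKM in Hand2 cKO libraries 1 to 3 and 116, 64.3 and 81.7 in control libraries 1 to 3, so all 3 mutant libraries lay below all 3 controls (log2 difference -1.78, limma adjusted p = 0.109 without and 0.00279 with the replicate block). The reads recovered from the FPKM values summed to between 23801981 and 30751244 per library, and the 10 genes had 198 to 5869 reads each per library. Control library 3 held yolk sac and liver endoderm transcripts. The summed level of 14 such markers was 730 FPKM there, 4.83 to 9.61 in the Hand2 cKO libraries and as low as 5.79 in the other controls. Without that library the log2 differences of the 10 genes ranged from -0.32 to 0.41, and those of Vegfb (-0.05) and Kdr (0.03) changed sign. Libraries with the same number deviated together from their group means, so a fit with the number as a block is given beside the test without it. Nothing in the labels says that libraries came from separate litters, so the spread behind each p-value may be technical.

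The levels of the 10 genes spanned a wide range. Averaged over the 6 libraries, Vegfb had 61.1 FPKM, Vegfa 40.1, Tie1 25.7, Kdr 10.8, Tek 9.65, Vegfc 7.71, Angpt2 5.28, Flt4 4.06, Flt1 3.59 and Angpt1 2.54. FPKM is scaled by the exon length counted for each gene, so these levels can be compared between genes only roughly. Flt1 had 866 to 1751 reads per library over 13504 exonic bases of the reference, and Angpt2 had 390 to 681 over 3690. The lengths of the transcripts made were not measured, and the order below is one of FPKM. From Vegfb down to Kdr each gene lay above the next in all 6 libraries with no overlap of their ranges. From Kdr downwards the ranges of neighbours overlapped. Vegfb was higher than 92.8% of the 12650 genes tested or level with them, and Angpt1 than 19.8%, so the ligands held both ends of the order.

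The angiopoietin ligands had the smallest unadjusted p-values of the 10 genes in the fit without the replicate block, and they differed in opposite directions. Angpt2 (ENSMUSG00000031465, chromosome 8 from 18690263 to 18741562 on the minus strand of GRCm38, 10 exon blocks) had 5.51, 6.24 and 6.75 FPKM in Hand2 cKO libraries 1 to 3, against 4.54, 4.22 and 4.39 FPKM in control libraries 1 to 3. Every mutant library lay above every control, and the controls lay close together. The mean was 6.17 ± 0.624 FPKM in Hand2 cKO and 4.39 ± 0.16 in controls (SD, n = 3 each), a ratio of 1.41. The log2 difference was 0.41 (SE 0.09, 95% interval 0.19 to 0.63) after 1 was added to each FPKM value, an addition that makes changes of low genes look smaller than they are. By limma the adjusted p was 0.315 without the replicate block and 0.0414 with it, and it ranged from 0.00748 to 1.00 over 18 alternative settings. Angpt2 thus rose in the blocked fit alone of these 2, and the blocked call was lost without both libraries numbered 2 (adjusted p = 0.118) or 3 (0.141). Between libraries of the same number, Angpt2 was higher in Hand2 cKO by 0.23, 0.47 and 0.52 log2 units for numbers 1, 2 and 3.

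Angpt1 (ENSMUSG00000022309, chromosome 15 from 42424723 to 42676977 on the minus strand, 10 exon blocks) differed in the other direction. It had 2.29, 1.74 and 2.35 FPKM in Hand2 cKO libraries 1 to 3, against 2.63, 2.995 and 3.25 FPKM in control libraries 1 to 3. The groups again did not overlap, and Hand2 cKO library 2 was the lowest. The mean was 2.13 ± 0.334 FPKM in Hand2 cKO and 2.96 ± 0.313 in controls (SD, n = 3 each), which is 71.9% of the control mean. Its log2 difference was -0.34 (SE 0.12, 95% interval -0.62 to -0.06), with a limma adjusted p of 0.572 without the block and 0.106 with it. Among the 18 alternative settings it passed only when libraries were weighted by their scatter (array weights, limma adjusted p = 0.0346), and its adjusted p reached 1.00. An antisense gene, Gm17473, shares 14.2% of the exonic bases of Angpt1 in the reference, and the counting is not stated to use strand, so reads there cannot be told apart between the pair. In bulk tissue fewer cells of a type and less RNA per cell cannot be told apart, here and in all results that follow.

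**Figure D1:**
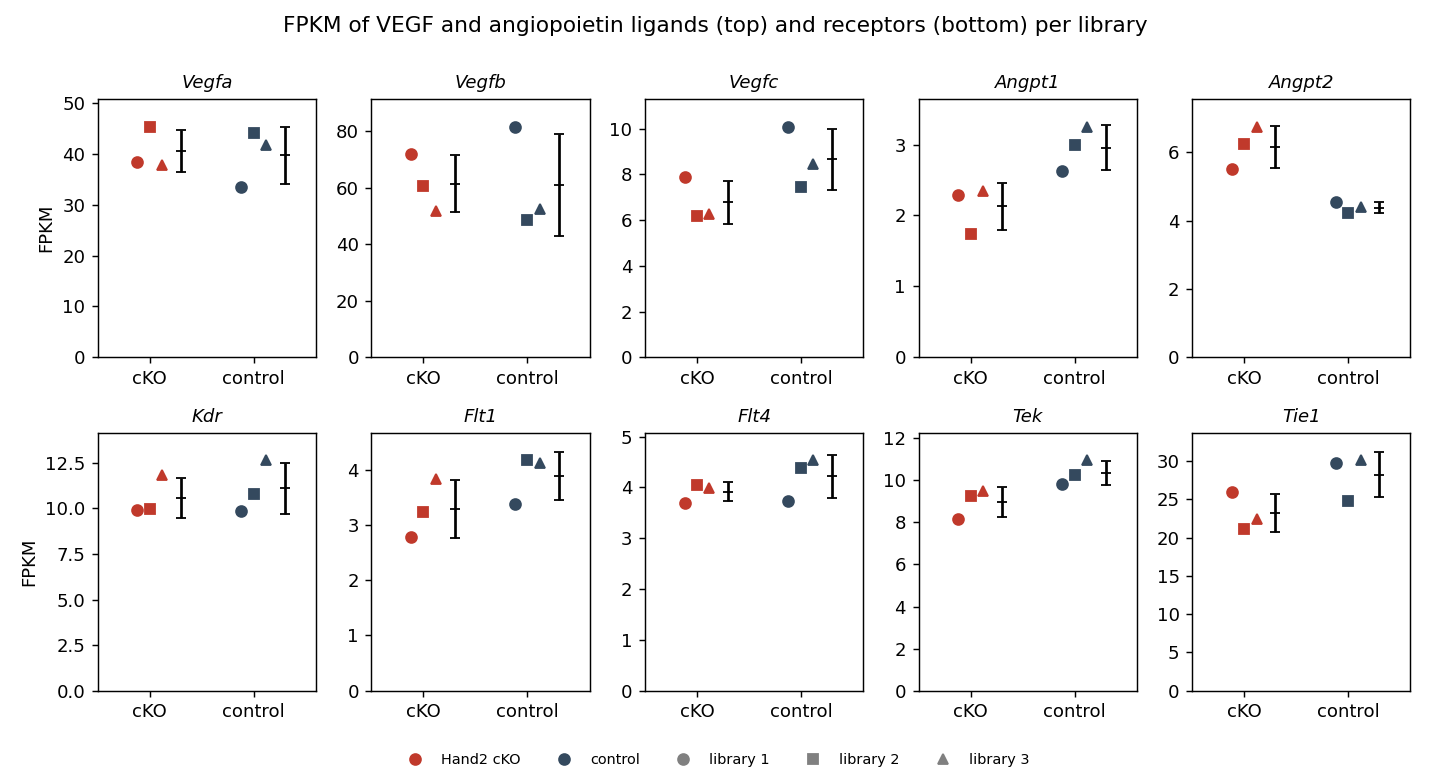
FPKM (vertical axes, from 0, a scale per gene) of the 5 ligand genes (top) and 5 receptor genes (bottom), with a point per library, red for Hand2 cKO and dark blue for control, the marker shape giving the library number and the bar the mean ± SD (n = 3). The Angpt2 points of Hand2 cKO lie at 5.51 to 6.75 above all controls, and those of Angpt1 and Tek lie below all controls.

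Of the 3 VEGF ligands, Vegfc was lower in Hand2 cKO and the other two were close to level. Vegfc (ENSMUSG00000031520, chromosome 8 from 54077606 to 54187096 on the plus strand, 7 exon blocks), the ligand of Flt4 needed for lymphatic growth, had 7.87, 6.17 and 6.28 FPKM in Hand2 cKO libraries 1 to 3, against 10.1, 7.43 and 8.46 FPKM in control libraries 1 to 3. Library 1 was the highest in both groups, so the groups overlapped, but within each number the mutant was lower, with log2 differences of -0.32, -0.23 and -0.38 for numbers 1, 2 and 3. The log2 difference was -0.31 (SE 0.13, 95% interval -0.63 to 0.01) without the block. With the block it had an SE of 0.06 and an interval of -0.45 to -0.17. The limma adjusted p was 0.742 without the block and 0.038 with it, so Vegfc fell with the block only, and that call was lost without both libraries numbered 1, 2 or 3 (0.138, 0.0639 and 0.167).

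Vegfa (ENSMUSG00000023951, chromosome 17 from 46016993 to 46032369 on the minus strand, 8 exon blocks), the main vascular growth factor of the embryo, had 38.4, 45.3 and 37.9 FPKM in Hand2 cKO libraries 1 to 3, against 33.5, 44.0 and 41.6 FPKM in control libraries 1 to 3. The highest value of each group was in library 2 and the groups overlapped throughout. The mean was 40.5 ± 4.13 FPKM in Hand2 cKO and 39.7 ± 5.54 in controls (SD, n = 3 each). The log2 difference of 0.03 had a 95% interval of -0.28 to 0.35, or -0.14 to 0.21 with the block, and its sign changed with the libraries left out. Differences within those bounds remain compatible with these values. The bounds do not mark the smallest difference that could be called.

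Vegfb (ENSMUSG00000024962, chromosome 19 from 6982473 to 6987651 on the minus strand, 7 exon blocks), a ligand of Flt1 that is abundant in heart and other tissues with much oxidative metabolism, had 71.9, 60.4 and 51.9 FPKM in Hand2 cKO libraries 1 to 3, against 81.5, 48.6 and 52.3 FPKM in control libraries 1 to 3. Library 1 was the highest of both groups. The log2 difference was 0.04 (95% interval -0.47 to 0.55 without the block and -0.20 to 0.28 with it), the widest interval of the 10 genes, and its sign also changed with the libraries left out.

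All 5 receptor genes had lower means in Hand2 cKO, at 82.3% to 95.3% of the control means, and none passed the limma test without the block or in any of the 18 alternative settings (unadjusted p 0.056 to 0.618 without the block, 0 of 5 under 0.05). With the block the unadjusted limma p was 0.00496 for Tie1, 0.011 for Tek, 0.0308 for Flt1, 0.219 for Flt4 and 0.287 for Kdr. Tek (ENSMUSG00000006386, chromosome 4 from 94739289 to 94874976 on the plus strand, 23 exon blocks) had 8.14, 9.25 and 9.49 FPKM in Hand2 cKO libraries 1 to 3, against 9.84, 10.3 and 10.9 FPKM in control libraries 1 to 3. Its groups did not overlap, although the highest mutant and the lowest control lay close together. Tek had a log2 difference of -0.19 (SE 0.09, 95% interval -0.41 to 0.03), with a limma adjusted p of 0.799 without the block and 0.103 with it.

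Tie1 (ENSMUSG00000033191, chromosome 4 from 118471191 to 118490061 on the minus strand, 22 exon blocks) had the highest FPKM of the receptors. It had 26.0, 21.1 and 22.4 FPKM in Hand2 cKO libraries 1 to 3, against 29.7, 24.8 and 30.1 FPKM in control libraries 1 to 3. Hand2 cKO library 1 lay above control library 2, but within each number the mutant was lower, with log2 differences of -0.18, -0.22 and -0.41 for numbers 1, 2 and 3. This gave a log2 difference of -0.27 (SE 0.12, 95% interval -0.55 to 0.01), with a limma adjusted p of 0.744 without the block and 0.0701 with it.

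Among the VEGF receptors, Flt1 (ENSMUSG00000029648, chromosome 5 from 147561604 to 147726011 on the minus strand, 33 exon blocks) had 2.79, 3.23 and 3.84 FPKM in Hand2 cKO libraries 1 to 3, against 3.39, 4.17 and 4.12 FPKM in control libraries 1 to 3. Its groups overlapped and its log2 difference was -0.19 (SE 0.12, 95% interval -0.48 to 0.10, limma adjusted p = 0.898 without the block and 0.17 with it). A soluble and a membrane form are made from this gene, and the table gives a single value per gene, so the forms were not separated.

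Kdr (ENSMUSG00000062960, chromosome 5 from 75932827 to 75978458 on the minus strand, 29 exon blocks) had 9.94, 9.97 and 11.8 FPKM in Hand2 cKO libraries 1 to 3, against 9.87, 10.8 and 12.6 FPKM in control libraries 1 to 3. Library 3 was the highest of both groups and the groups overlapped almost fully. The log2 difference was -0.06 (95% interval -0.34 to 0.22 without the block and -0.19 to 0.07 with it), and it was 0.03 without control library 3. Flt4 (ENSMUSG00000020357, chromosome 11 from 49609263 to 49652739 on the plus strand, 29 exon blocks) had 3.70, 4.04 and 3.99 FPKM in Hand2 cKO libraries 1 to 3, against 3.74, 4.38 and 4.53 FPKM in control libraries 1 to 3. Its log2 difference was -0.08 (95% interval -0.31 to 0.14 without the block and -0.23 to 0.07 with it).

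The promoters of Vegfc and of the receptors Flt1, Tek and Tie1 are shown as the sequence next to the RefSeq start of each gene. These are 4 of the 6 genes that were lower in the mutant of every number. That of Kdr, which was not lower in every number, is shown with them. Each line gives the 250 bases before the RefSeq start, 5′ to 3′ on the gene's strand. Capitals mark GGAA on either strand, the core bound by ETS factors that are known to act at endothelial promoters, and CANNTG, the E-box bound by basic helix-loop-helix factors, the family of Hand2.
Vegfc (GRCm38, chr8:54077282-54077531, plus strand): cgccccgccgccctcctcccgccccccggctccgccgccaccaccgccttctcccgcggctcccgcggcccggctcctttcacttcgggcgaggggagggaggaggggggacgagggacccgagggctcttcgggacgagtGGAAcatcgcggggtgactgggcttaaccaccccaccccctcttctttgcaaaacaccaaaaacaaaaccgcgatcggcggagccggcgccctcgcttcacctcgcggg
Flt1 (GRCm38, chr5:147726012-147726261, minus strand): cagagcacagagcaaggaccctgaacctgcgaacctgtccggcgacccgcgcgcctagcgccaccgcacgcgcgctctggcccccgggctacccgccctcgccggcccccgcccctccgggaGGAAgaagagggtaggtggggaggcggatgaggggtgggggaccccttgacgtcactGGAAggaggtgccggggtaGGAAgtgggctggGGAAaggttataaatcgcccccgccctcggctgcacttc
Kdr (GRCm38, chr5:75978456-75978705, minus strand): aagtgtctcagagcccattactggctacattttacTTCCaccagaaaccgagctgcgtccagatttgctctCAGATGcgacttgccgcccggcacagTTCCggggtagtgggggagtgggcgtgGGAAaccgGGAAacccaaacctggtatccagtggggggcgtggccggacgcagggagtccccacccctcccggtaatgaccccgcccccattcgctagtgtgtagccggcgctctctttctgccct
Tek (GRCm38, chr4:94739039-94739288, plus strand): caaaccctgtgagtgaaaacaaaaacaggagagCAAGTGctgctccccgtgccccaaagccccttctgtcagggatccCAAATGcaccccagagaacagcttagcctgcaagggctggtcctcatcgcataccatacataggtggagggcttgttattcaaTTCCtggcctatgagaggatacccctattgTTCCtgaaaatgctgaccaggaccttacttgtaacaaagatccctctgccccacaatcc
Tie1 (GRCm38, chr4:118489850-118490099, minus strand): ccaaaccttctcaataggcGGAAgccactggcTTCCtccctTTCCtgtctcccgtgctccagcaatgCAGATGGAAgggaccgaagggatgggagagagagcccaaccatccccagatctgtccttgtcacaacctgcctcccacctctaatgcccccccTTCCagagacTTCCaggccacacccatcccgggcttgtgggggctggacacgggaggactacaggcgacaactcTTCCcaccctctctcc

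RefSeq promoters were found for 8 of the 10 genes, Angpt1 and Angpt2 being the exceptions. The GGAA core occurred 7 times in the Tie1 window, 6 times at the first start of Vegfa and 4 times in each of the Kdr and Flt1 windows. It occurred 2 times in each of the Tek and Flt4 windows and at the second start of Vegfa. In each of the Vegfb and Vegfc windows it occurred once. The median was 3 over 32851 promoter windows of the same length. At least 1 such core was present in 93.4% of those windows. CANNTG occurred 2 times in the Tek window and at the second Vegfa start, and once in each of the Kdr, Flt4, Tie1 and Vegfb windows. It was absent from the Flt1 and Vegfc windows and from the first Vegfa start, and 66.2% of all windows held it. In the Tie1 window the E-box shares bases with a GGAA core. ACGTG, the core of the site bound by hypoxia-inducible factors, was in 16.6% of all windows and in 1 of the 9 member windows, at the second start of Vegfa. The windows of Flt4 and of the second Vegfa start lie wholly inside the gene bounds given above, as does most of the Tie1 window. These matches describe letters and not binding.

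Across the 10 genes, limma without the block called 0 higher and 0 lower, where it called 0.0237% of the 12650 genes tested higher and 0.15% lower. Before adjustment, limma gave p under 0.05 to 1 higher (Angpt2) and 1 lower gene (Angpt1), against 2.60% and 4.32% of all genes, and voom on the recovered reads without the block also called 0 and 0 of the 10. The unadjusted count of lower genes was 0 with the FPKM sums of the libraries set equal, and 0 without Hand2 cKO library 2 or control library 3. It was 2 without control library 2 and 3 without Hand2 cKO library 1. It was 5 with the block, with array weights and by voom with the block. With the block and without both libraries numbered 1, 2 or 3 it was 3, 3 and 4. The share of all genes with such a p in those settings is not given here. With the block, 1 was called higher (Angpt2) and 1 lower (Vegfc), against 1.42% and 3.70% of all genes. Array weights called 1 higher (Angpt2) and 1 lower (Angpt1), against 1.53% and 2.76% of all genes, and voom with the block called 1 higher (Angpt2) and 0 lower, against 4.64% and 4.74%. The groups did not overlap for 1 gene that was higher and 2 that were lower, where the shares over all genes were 5.44% and 6.85%. The mutant was lower in all 3 numbers for 6 of the 10 (Vegfc, Flt1, Flt4, Tek, Tie1 and Angpt1), against 25.1% of all genes, and higher in all 3 for 1 (Angpt2), against 20.5%. The median log2 difference was -0.14 over the 10 genes and -0.00678 over all genes tested.

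**Figure D2:**
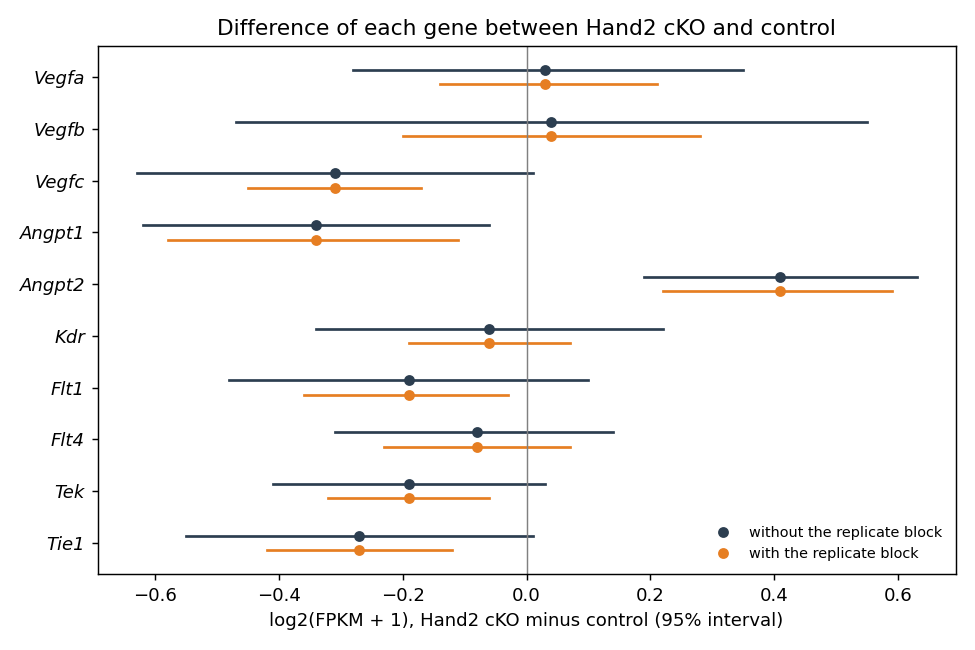
Log2 difference of each gene, Hand2 cKO minus control (horizontal axis, log2(FPKM + 1)), with 95% intervals from limma without the replicate block (dark blue) and with it (orange). Angpt2 is at 0.41 and Angpt1 at -0.34 with both intervals clear of 0, and those of Vegfa, Vegfb, Kdr and Flt4 span 0 in both fits.

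Ratios between genes of the same library do not depend on library scaling. The ratio of Angpt2 to Angpt1 was 2.40, 3.58 and 2.88 in Hand2 cKO libraries 1 to 3, against 1.73, 1.41 and 1.35 in control libraries 1 to 3. On the log2 scale it averaged 1.54 ± 0.29 in Hand2 cKO and 0.57 ± 0.19 in controls (SD, n = 3 each), a 1.96-fold higher ratio. A two-sided exact permutation test gave p = 0.1, the lower limit for 3 libraries against 3 (0.2 adjusted over the 4 ratios computed). Angpt2 was higher and Angpt1 lower in every mutant library than in every control, so the ratio had to separate the groups. This p therefore adds nothing to the values of the 2 genes. The log2 difference was 0.97 with all libraries and 0.82 to 1.11 when any single library was left out.

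The ratio of Flt1 to Kdr, the decoy against the signalling receptor, was 0.281, 0.324 and 0.324 in Hand2 cKO libraries 1 to 3, against 0.344, 0.386 and 0.326 in control libraries 1 to 3. The groups did not overlap, but mutant libraries 2 and 3 and control library 3 were almost level. The two-sided exact permutation p was again 0.1 (0.2 adjusted). The ratio of Tek to Tie1 was 0.313, 0.437 and 0.423 in Hand2 cKO libraries 1 to 3, against 0.331, 0.413 and 0.364 in control libraries 1 to 3. That of Vegfa to Kdr was 3.87, 4.55 and 3.20 in Hand2 cKO libraries 1 to 3, against 3.39, 4.07 and 3.29 in control libraries 1 to 3. For both of these ratios the groups overlapped (exact permutation p = 0.8 for Tek to Tie1 and 0.7 for Vegfa to Kdr).

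**Figure D3:**
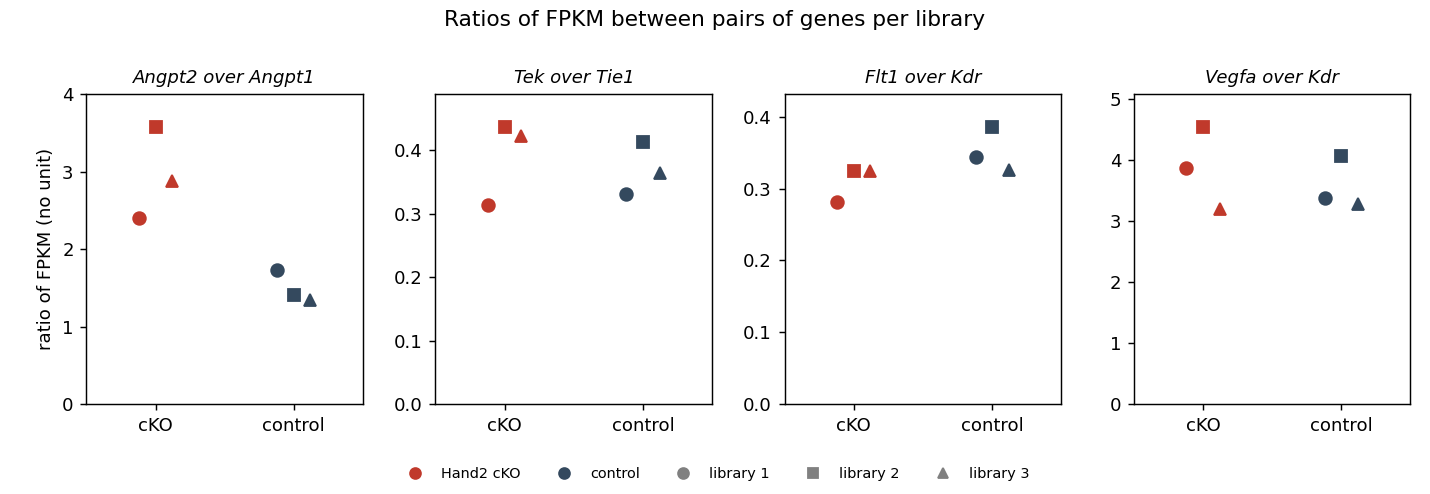
Ratio of FPKM between 2 genes in each library (vertical axes, from 0, no unit), Hand2 cKO in red and control in dark blue, the marker shape giving the library number. The Angpt2 to Angpt1 ratio lies at 2.40 to 3.58 in Hand2 cKO and at 1.35 to 1.73 in controls.

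The receptors are made mainly by endothelial cells, so each gene was also set against 24 endothelial markers of the same library. The mean log2(FPKM + 1) of these markers was 3.16, 2.93 and 2.99 in Hand2 cKO libraries 1 to 3, against 3.43, 3.19 and 3.28 in control libraries 1 to 3. It was lower in the mutant of each number, with a difference of -0.27 between the group means (two-sided exact permutation p = 0.1, the smallest possible). Of the 24 markers, 0 were called by limma or by voom without the block, and 11 lower and 0 higher had an unadjusted limma p under 0.05. That count was 7 without Hand2 cKO library 2 or without control library 3, and 6 with equal sums. It was 12 without Hand2 cKO library 1, 17 with array weights or by voom with the block, and 20 with the block. Over all genes 4.32% were lower and 2.60% higher at an unadjusted limma p under 0.05 without the block. The blocked fit called 3.70% of all genes lower and 1.42% higher. Of the markers 10 fell and 0 rose with the block, and with both libraries numbered 1, 2 or 3 left out 3, 5 and 4 fell. They included Cdh5, the cadherin of endothelial junctions, with 28.7, 27.9 and 31.2 FPKM in Hand2 cKO libraries 1 to 3, against 40.6, 39.4 and 41.2 FPKM in control libraries 1 to 3. Eng, a TGF-beta coreceptor, Emcn and Pecam1 fell with the block too. By sign 22 of the 24 markers were lower and 2 higher, Fli1 (log2 difference 0.13) and Robo4 (0.01). The median log2 difference of the markers was -0.27.

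Relative to these markers, Tie1 averaged 1.56 log2 units above their mean in both groups, with values of 1.59, 1.54 and 1.56 in Hand2 cKO libraries 1 to 3, against 1.51, 1.5 and 1.68 in control libraries 1 to 3. Vegfc, Flt1, Tek and Angpt1 differed by -0.07 to 0.08 log2 units, less than the spread between libraries, and in each of them the groups overlapped. Kdr, Flt4, Vegfa and Vegfb had differences of 0.21, 0.19, 0.31 and 0.31 relative to the markers, also with overlapping groups. Each of these 4 was higher relative to the markers in the mutant of every number. The marker mean was itself lower in every number, so a gene with no change of its own would read the same way. Without control library 1 the differences were 0.07 for Kdr, 0.06 for Flt4 and 0.13 for Vegfa, and over single libraries left out they spanned 0.07 to 0.32, 0.06 to 0.28, 0.13 to 0.43 and, for Vegfb, 0.22 to 0.47. For Angpt2 the groups did not overlap in this measure. It stood at -0.46, -0.08 and -0.04 log2 units from the marker mean in Hand2 cKO libraries 1 to 3, against -0.96, -0.81 and -0.85 in control libraries 1 to 3. The difference of 0.68 had a two-sided exact permutation p of 0.1, the smallest possible (0.75 adjusted over the 10 genes). This separation and its p were fixed in advance, because Angpt2 was higher and the marker mean lower in every mutant library than in every control. Markers such as Cd34 and Npr3 are known from other cells too, and the share of endothelial cells in the pools was not measured.

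**Figure D4:**
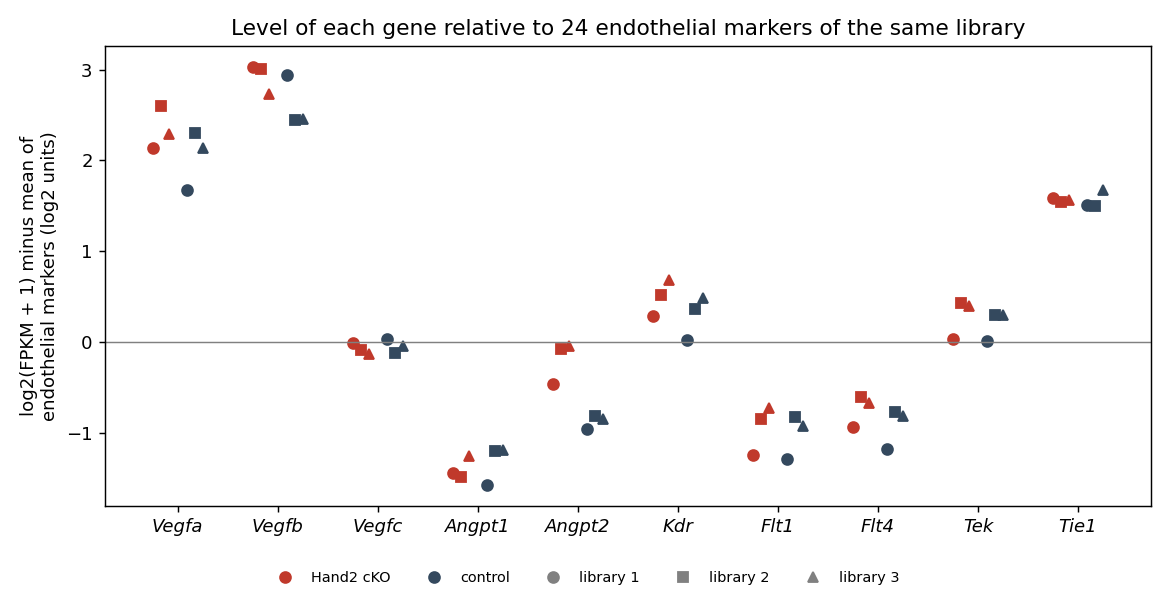
Log2(FPKM + 1) of each gene minus the mean of 24 endothelial markers in the same library (vertical axis, log2 units), Hand2 cKO in red left of control in dark blue, the marker shape giving the library number. Angpt2 lies higher in all Hand2 cKO libraries than in controls, and the points of the 5 receptors overlap between the groups.

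Other ligands, coreceptors and a receptor phosphatase of the pathway were read beside the 10 genes. Nrp2, a coreceptor for VEGF-C and for class 3 semaphorins, had 7.73, 9.12 and 11.5 FPKM in Hand2 cKO libraries 1 to 3, against 16.9, 22.8 and 25.7 FPKM in control libraries 1 to 3. The highest mutant library lay below the lowest control, and the log2 difference was -1.12 (SE 0.19, limma adjusted p = 0.124 without the block and 0.00204 with it). Nrp1, a coreceptor for VEGF-A, had 11.1, 12.8 and 12.3 FPKM in Hand2 cKO libraries 1 to 3, against 13.4, 15.4 and 17.0 FPKM in control libraries 1 to 3 (log2 difference -0.31, limma adjusted p = 0.581 without the block and 0.047 with it). Pgf, placental growth factor, a ligand of Flt1, had 9.49, 5.44 and 5.46 FPKM in Hand2 cKO libraries 1 to 3, against 3.86, 3.46 and 2.84 FPKM in control libraries 1 to 3. All mutant values were above all controls, with library 1 the highest, and the log2 difference was 0.80 (SE 0.21, limma adjusted p = 0.376 without the block and 0.0213 with it).

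Of the other members of that list, Ptprb, the endothelial phosphatase that acts on Tek, had 1.64 ± 0.466 FPKM in Hand2 cKO and 2.06 ± 0.341 in controls (SD, n = 3 each) and passed in neither fit. Vegfd, a ligand of Flt4 in the mouse, had 1.18 and 1.24 FPKM in Hand2 cKO and controls and passed in neither. Angpt4, a further angiopoietin, was under the minimum for testing, at 0.418 and 0.695 FPKM in Hand2 cKO and controls. Of the 5 tested, limma without the block called 0, as did voom without the block. With the block 1 rose and 2 fell, against 1.42% and 3.70% of all genes. Over all genes 2.60% were higher and 4.32% lower at an unadjusted limma p under 0.05. Unadjusted limma p-values under 0.05 numbered 1 for higher and 2 for lower levels, and the median log2 difference was -0.22, or -0.14 without control library 3.

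Genes that carry the signal inside the cell had a median difference near 0. Of 34 tested genes downstream of the VEGF receptors, 0 passed limma without the block, where 0 higher and 1 lower had an unadjusted p under 0.05. Over all genes, 2.60% higher and 4.32% lower had such a p, and 6.85% were lower without overlap of the groups. The blocked fit called 1.42% of all genes higher and 3.70% lower. In the list 0 rose and 2 fell with the block, with a median log2 difference of -0.00. Those that fell were Ptpn11, a phosphatase that relays growth factor signals, with 34.0 FPKM in Hand2 cKO and 41.3 in controls, and Hspb1, a small heat shock protein also abundant in heart muscle, with 218 FPKM in Hand2 cKO and 338 in controls. Nfatc1, the endocardial transcription factor activated through calcineurin, had 3.36, 3.58 and 4.001 FPKM in Hand2 cKO libraries 1 to 3, against 5.06, 4.07 and 4.96 FPKM in control libraries 1 to 3, without overlap (limma adjusted p = 0.618 without the block and 0.104 with it). The calcineurin subunit genes Ppp3r1 and Ppp3ca had log2 differences of -0.18 and 0.17 and passed in neither fit.

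Of 17 tested genes of the angiogenic response, 0 passed limma without the block, where 1 higher and 5 lower had an unadjusted p under 0.05. Over all genes, 2.60% higher and 4.32% lower had such a p, and 6.85% were lower without overlap of the groups. In the blocked fit 1 rose and 2 fell, against 1.42% and 3.70% of all genes (median log2 difference -0.06 for the list). Cxcr4, a chemokine receptor of sprouting endothelium, rose with the block, with 16.0 FPKM in Hand2 cKO and 11.9 in controls. Klf4, a transcription factor induced by flow, fell with the block, with 3.69 FPKM in Hand2 cKO and 5.45 in controls. Dll4, the Notch ligand induced by VEGF, had 5.24, 5.21 and 5.12 FPKM in Hand2 cKO libraries 1 to 3, against 5.87, 6.97 and 6.47 FPKM in control libraries 1 to 3. All 3 mutants lay below all 3 controls, and the limma adjusted p was 0.557 without the block and 0.0834 with it. Rasip1, needed for vessel lumens, had a log2 difference of -0.31 and also passed in neither fit.

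Vegfa is itself a target of hypoxia-inducible factors, so other targets were read beside it. Of 17 tested, 0 passed limma without the block, where 2 higher and 0 lower had an unadjusted p under 0.05. Over all genes, 2.60% higher and 4.32% lower had such a p. In the blocked fit 2 rose and 0 fell, against 1.42% and 3.70% of all genes. The median log2 difference of the list was 0.08. Adm, the vasoactive peptide adrenomedullin, had 3.07, 3.33 and 3.98 FPKM in Hand2 cKO libraries 1 to 3, against 1.83, 1.69 and 2.07 FPKM in control libraries 1 to 3 (log2 difference 0.64, limma adjusted p = 0.137 without the block and 0.0129 with it). Ddit4, an inhibitor of mTOR signalling, had 48.3, 35.2 and 36.5 FPKM in Hand2 cKO libraries 1 to 3, against 31.5, 22.5 and 18.6 FPKM in control libraries 1 to 3 (log2 difference 0.72, limma adjusted p = 0.429 without the block and 0.0111 with it). Pfkfb3 and Egln3 had log2 differences of 0.21 and 0.18 and passed in neither fit. Vegfa, at 0.03, was not among the targets that rose.

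Markers of other cells were measured in the same libraries, and their part in the differences above was not tested. The 15 cardiac muscle markers summed to 3717 to 5788 FPKM in Hand2 cKO and 5657 to 9181 in controls, and Nppb was the 1 that fell by limma without the block, against 11 in the blocked fit. The 11 smooth muscle and pericyte markers summed to 1178 to 1466 FPKM in Hand2 cKO and 1728 to 2549 in controls. Of 9 tested, 2 fell without the block (Rgs5 and Cspg4), and with it 6 fell and 1 rose. Without the block limma called 0.15% of all genes lower and 0.0237% higher. Notch3 was the 1 that rose, with 38.1 FPKM in Hand2 cKO and 29.5 in controls. Its limma adjusted p was 0.394 without the block and 0.0292 with it. By sign 7 of the 9 were lower and 2 higher, the second being Pdgfrb (17.4 FPKM in Hand2 cKO and 16.7 in controls). The blocked fit called 3.70% of all genes lower and 1.42% higher. The 13 red cell markers in the table summed to 3522 to 5126 FPKM in Hand2 cKO and 3374 to 8024 in controls, with 0 of 12 tested called in either fit and 0 with an unadjusted limma p under 0.05. Of the 5 lymphatic endothelial markers only Prox1, also made by heart muscle, and Pdpn reached the minimum for testing, and Lyve1 had 0.134, 0.144 and 0.0842 FPKM in Hand2 cKO libraries 1 to 3, against 0.181, 0.222 and 2.68 FPKM in control libraries 1 to 3, the highest being the library with endoderm transcripts. Of 12 macrophage and platelet markers 3 were tested and 0 called by limma in either fit. Without the block 1 was higher at an unadjusted limma p under 0.05, against 2.60% of all genes.

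**Figure D5:**
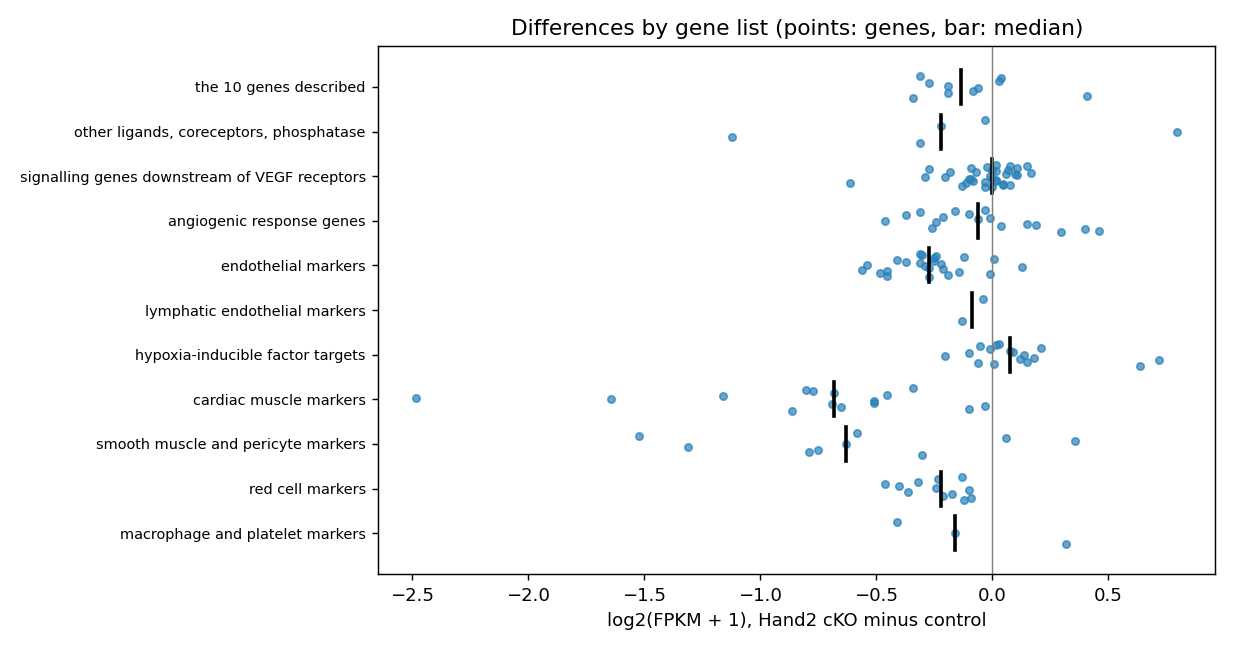
Log2 difference of each tested gene, Hand2 cKO minus control (horizontal axis, log2(FPKM + 1)), by gene list, with a point per gene and a bar at the median. The medians lie at -0.14 for the 10 genes, -0.27 for endothelial markers and -0.68 for cardiac muscle markers. The yolk sac and liver endoderm list, high in control library 3 alone, is not drawn.

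The profiles most like those of 4 receptors were found among 7944 other genes with a mean of at least 5 FPKM, by the root mean square difference of log2(FPKM + 1) over the 6 libraries after each gene's mean was subtracted. The 3 nearest to Tie1 were Sod2 (0.033), Ehd2 (0.040) and Vdac2 (0.041), where Tie1 itself varied by 0.182 around its mean. The 3 nearest to Tek were Nr4a1 (0.029), Cldnd1 (0.029) and Ctps (0.031), those nearest to Flt1 were Ate1 (0.022), Rdx (0.031) and Gnl3l (0.032), and those nearest to Kdr were Mtmr12 (0.027), Stard7 (0.028) and Dennd5a (0.029). None of these 12 genes is an endothelial marker of the list used above, but markers with a mean under 5 FPKM were not candidates. Markers were also few among the 7944 candidates, so their absence says little. Nr4a1 is in the list of angiogenic response genes. With 6 libraries and 7944 candidates this is a description only.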

How the data were processed

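The authors deposited 1 table of FPKM values, with a column per library and genes by Ensembl ID. Per the submitters' processing notes, the tools were Cufflinks 2.2.1, STAR 2.5.1b and bcl2fastq 2.18, with mm8 as the listed build. Neither annotation nor strand setting is stated. Symbols came from a name table that left 129 IDs unmatched. Whole reads were recovered from the FPKM steps. At the union exon length of GENCODE M21 (GRCm38), 79.3% of genes gave whole reads within 0.01 in all libraries, among them 7 of the 10 genes described. For the other genes, including Vegfa, Vegfc and Angpt1, the smallest whole multiple was taken, so their counted exons differ from those described. Coordinates are on GRCm38, and promoters come from RefSeq (GRCm38.p6).

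Libraries were grouped by title. The main test was limma 3.58.1 (R 4.3.3) on log2 values of FPKM plus 1 (two-sided, trended prior), for 12650 genes whose mean reached 1 FPKM, adjusted over all of them by the Benjamini-Hochberg method at 0.05. The pseudocount of 1 understates changes of low genes. Exact permutation tests were two-sided. The fits were tested on simulated data. Replicate numbers were taken to pair libraries, because the deviations of same-numbered libraries from their group means correlated at 0.728, 0.443 and 0.443 for numbers 1 to 3. The labels do not state this pairing, and Hand2 cKO 3 with control 2 also gave 0.306. Alternatives were a pseudocount of 0.1, no filter, quantile, equal-sum and median-ratio scaling, array weights, the block, voom on recovered reads, and leaving out libraries. Genes named are the 10 members, Hand2, and in each other list those that passed without the block and up to 4 with the smallest p, and 3 nearest profiles for each of 4 receptors. Hspb1, Vegfd, Angpt4, Lyve1, Cd34, Npr3, Pdgfrb, Fli1 and Robo4 fall outside this rule and were named after their values were seen. The members and lists were chosen with earlier results of these data known.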

Additional observations from a re-analysis of the deposited data

How the results depend on the processing

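The replicate block was the setting that most changed the count of genes called. Over all genes, 3 were higher and 19 lower in Hand2 cKO without it, 180 and 468 with it, 587 and 600 by voom with it, and 193 and 349 with array weights. With the block and without both libraries numbered 1, 2 or 3, the counts were 94 and 246, 54 and 229, and 80 and 210. They were 5 and 3 without the low-value filter, 9 lower with equal sums, and 0 to 2 in either direction when any single library was left out. Of the 10 genes, 1 was higher (Angpt2) under array weights (0.44), the block (0.41), voom with the block (0.54) and the block without number 1 (0.50), and 1 was lower under array weights (Angpt1, -0.53) and the block (Vegfc, -0.31). The block changed no other call among the 10. Hand2 passed at -1.71 with equal sums, -1.76 with array weights, -1.78 with the block, -1.77 by voom with the block, and -1.81, -1.92 and -1.60 with the block and without numbers 1, 2 and 3. Signs turned when single libraries were left out for Vegfa (-0.08 to 0.11), Vegfb (-0.10 to 0.27) and Kdr (-0.14 to 0.03). They also turned in the block without number 1 for Vegfa (-0.05) and without number 2 for Vegfb (-0.09). Relative to endothelial markers the sign turned for Tie1 (0.03 with a pseudocount of 0.1, 0.02 with markers of at least 5 FPKM, -0.03 to 0.06 over single libraries left out). Over single libraries left out it turned for Flt1 (-0.06 to 0.23), Vegfc (-0.08 to 0.0003) and Tek (-0.02 to 0.21), and for the log2 ratios of Tek to Tie1 (-0.02 to 0.22) and Vegfa to Kdr (-0.02 to 0.23). The cause was not tested.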
